A study of Mus musculus with 6 samples.

Results

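The striatum is divided into striosomes, also called patches, and the matrix that surrounds them. Markers of these compartments, 7 genes in all, were taken by name from the deposited table. Kremen1, Lypd1, Bach2, Asic4 and Rasgrp1 (5 genes) are used as markers of striosomes, and Calb1 and Rasgrp2 (2 genes) as markers of the matrix. Each of the 7 matched 1 Ensembl identifier among the 47062 in the table, and all 7 passed the filter on low values (a mean FPKM of at least 0.5). FPKM counts sequenced fragments relative to transcript length and to the mapped fragments of the library. Its values can be compared only approximately between genes and between libraries.

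RNA was sequenced from the striatum of newborn mice (postnatal day 0), dissected with the subventricular zone, on a background mixed from C57BL/6J, 129S6 and CD1. All animals carried Sp9Flox/Flox, the conditional allele of the zinc finger transcription factor gene Sp9. The 3 control libraries (Sp9Flox/Flox) came from littermates whose genotype lists no Cre, and the 3 mutant libraries (Drd2-Cre;Sp9Flox/Flox) also carried Drd2-Cre, in which sequences of the dopamine D2 receptor gene drive Cre recombinase, in this tissue mainly in indirect pathway projection neurons. No group carried Drd2-Cre without the floxed alleles, so the transgene and the deletion cannot be told apart as sources of a difference. Whether a library stands for 1 animal is not given in the labels; p-values then measure only the spread between these libraries, which may be technical.

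Projection neurons of striosomes are mostly born before those of the matrix, and the compartments differ in their inputs, in their outputs and in their neurochemistry. Striosomes are rich in the mu opioid receptor, and the matrix becomes rich in calbindin as the brain matures. Both compartments hold direct and indirect pathway neurons, so compartment and pathway are separate ways of sorting the same cells. In bulk tissue, fewer cells of a type and less RNA per cell cannot be told apart.

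A pair of related genes falls on either side of this division. Rasgrp1 and Rasgrp2 encode exchange factors that activate small GTPases of the Ras and Rap families. Proteins of the Sp family bind GC boxes, and the sequences before the starts of these genes are shown for that reason, 5′ to 3′ on the gene's own strand, with GGGCGG or its reverse complement CCGCCC in capitals. Both are RefSeq sequences on GRCm38.p6, cut to the longest stretch of the 250 bases before the start site that holds no annotated exon. For Rasgrp1 this is chr2:117343002-117343127 on the minus strand, and for Rasgrp2 chr19:6399625-6399745 on the plus strand. The stretches end 125 bases (Rasgrp1) and 130 bases (Rasgrp2) upstream of the start, so the bases nearest the start are not shown.
Rasgrp1: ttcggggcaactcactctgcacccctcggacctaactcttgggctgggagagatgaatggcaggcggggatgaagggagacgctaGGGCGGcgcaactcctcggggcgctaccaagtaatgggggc
Rasgrp2: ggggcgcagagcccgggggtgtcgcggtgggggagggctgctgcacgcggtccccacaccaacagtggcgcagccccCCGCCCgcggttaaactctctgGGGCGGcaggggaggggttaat

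In the full 250 bases before the start, Rasgrp1 held 1 GC box, 165 bases upstream. Rasgrp2 held 5 before its first listed start, at 173, 151, 57, 46 and 41 bases upstream, and 2 before its second. The matches at 46 and 41 overlap. The exon-free stretch shown for Rasgrp2 holds 2 of the 5, and the window before its second start lies wholly in annotated exons. Each of the 3 windows of Lypd1 held 1, and the window of Bach2 held 0. In the Lypd1 window with its box 228 bases upstream, the longest exon-free stretch held 0. All start sites used for Rasgrp1, Rasgrp2, Lypd1 and Bach2 lie inside the gene as annotated. That of Bach2 is at 32417435, in a gene that begins at 32238804. At least 1 box occurred in 32.7% of the 32851 promoter windows of the table, and 3 or more in 8.47%. These shares are for full windows, with any exons left in. Kremen1, Asic4 and Calb1 were not matched. A match is a description of the letters and not a binding site.

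Depth, estimated from the step of the deposited scaled counts, was 16236644 to 19458346 fragments per library, and correlations of log2 values between libraries ran from 0.824 to 0.859. FPKM totals ran from 1295150 in mutant replicate 2 to 1729930 in control replicate 3. Sp9 had 17.3 to 20.1 FPKM in the controls and 7.93 to 9.67 in the mutants, with no overlap between the groups, but did not pass the threshold of 0.05 (log2 fold change -1.08, adjusted p = 0.0567, limma). On the scaled counts Sp9 did pass (log2 fold change -1.32, adjusted p = 0.00635, limma). Adora2a, an adenosine receptor gene of indirect pathway neurons, fell from 44.3 ± 3.26 to 4.11 ± 1.18 FPKM (SD, n = 3 each; adjusted p = 0.00852, limma). The 11 striatal projection neuron markers were all present, with a summed FPKM of 1794 to 1875 in the controls and 1661 to 1775 in the mutants. Mutant replicate 3 stood apart in cortical markers. The 10 cortical genes, of which 2 had a mean FPKM under 0.5 and none was at 0 in all libraries, summed to 64.7 FPKM there, against 9.40 to 26.6 in the controls and 38.5 and 10.2 in mutant replicates 1 and 2. Mutant replicate 2 had the highest red blood cell markers. These 7 genes, 2 of them with a mean FPKM under 0.5 and none at 0 in all libraries, summed to 958 FPKM there, against 403 to 647 in the controls and 542 and 550 in the other mutants.

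The 7 genes differed in level by up to 106-fold in their medians over the 6 libraries. Lypd1 was the most abundant, with a median FPKM of 204 (179 to 246). Rasgrp2 followed with 80.6 (65.0 to 98.5), and neither range overlapped its neighbours. Calb1 (30.1, from 23.0 to 38.3), Rasgrp1 (25.4, from 22.7 to 27.5) and Bach2 (21.8, from 18.7 to 26.8) formed a middle group in which neighbouring ranges overlapped. Kremen1 (2.34, from 1.79 to 2.67) and Asic4 (1.93, from 1.40 to 2.85) were lowest and overlapped each other. By median, both matrix genes lay between the most abundant striosome gene and the other 4, but the range of Calb1 overlapped those of Rasgrp1 and Bach2.

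None of the 7 genes passed the threshold between mutants and controls (adjusted p of at most 0.05, limma on log2(FPKM + 0.5) over 16666 genes). Over all genes, 0.06% passed, 10 in number. At an unadjusted p under 0.05 the count was also 0 of 7, against 5.65% of all genes. With 3 libraries a group, an exact two-sided permutation p cannot go below 0.1. The median log2 fold change of the 7 was 0.0032, against -0.00016 over all genes tested. The 5 striosome genes had a median of -0.15, with 3 estimates below 0 and 2 above. The 2 matrix genes were both above 0, at 0.30 and 0.14.

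**Figure D1:**
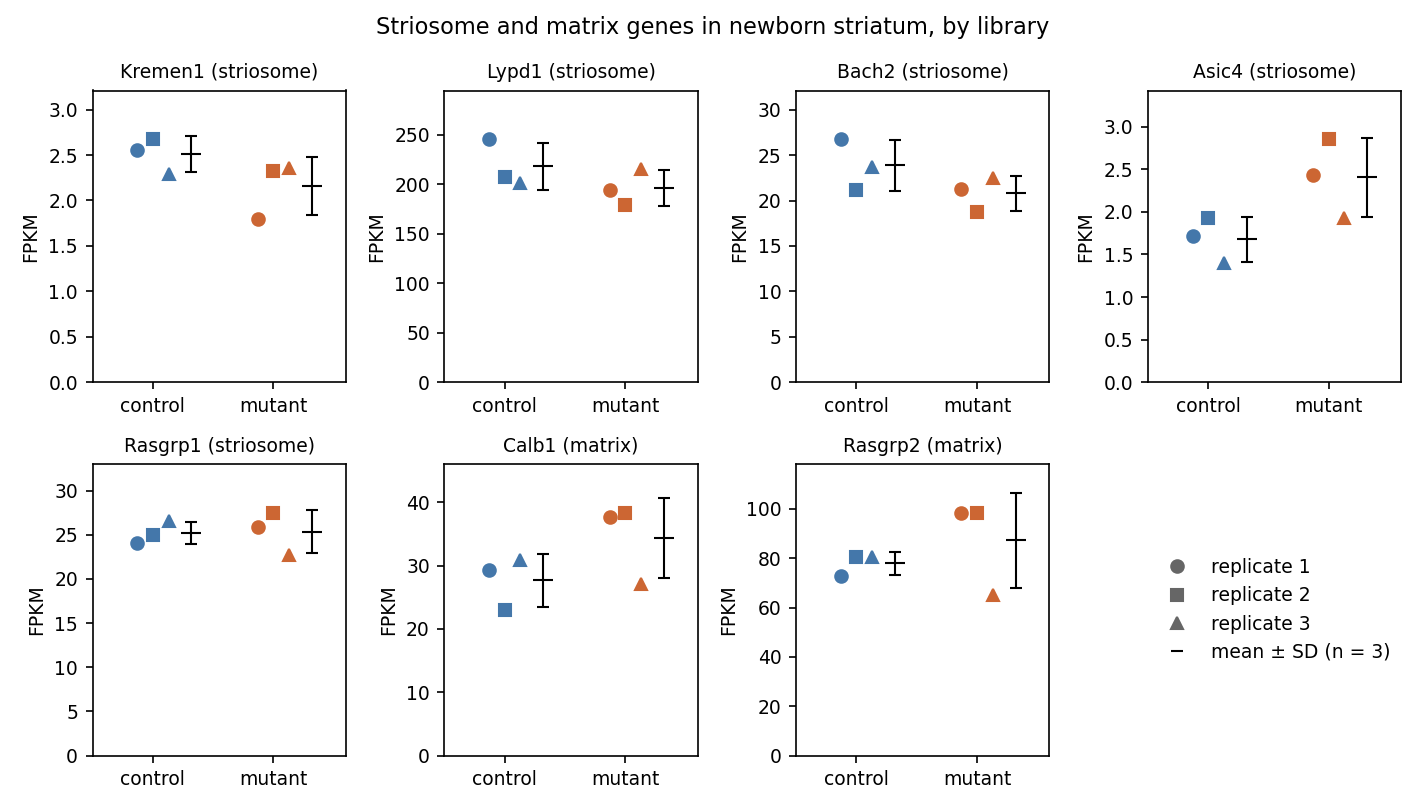
FPKM of the 7 genes in each library, with 1 panel per gene, controls in blue and mutants in orange; marker shapes give the replicate number and black bars the mean ± SD of 3 libraries. For Calb1 and Rasgrp2, mutant replicates 1 and 2 lie above every control while mutant replicate 3 does not.

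Kremen1 encodes a receptor for Dickkopf proteins that helps to remove Wnt co-receptors from the cell surface. It lies at chr11:5191552-5261558 on the minus strand of GRCm38 (ENSMUSG00000020393). The level was 2.56, 2.67 and 2.29 in control replicates 1 to 3 and 1.79, 2.32 and 2.36 FPKM in mutant replicates 1 to 3. The lowest value was that of mutant replicate 1, and the other mutants lay within the range of the controls. The mutants thus gave a log2 fold change of -0.18 ± 0.13 (SE; 95% interval -0.51 to 0.14, adjusted p = 0.888, limma), which was -0.08 without mutant replicate 1.

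Lypd1 encodes a membrane-anchored protein of the Ly6 family that modulates nicotinic acetylcholine receptors. The gene lies at chr1:125867622-125913101 on the minus strand (ENSMUSG00000026344). Among the controls it had 246, 207 and 202 FPKM in replicates 1 to 3, and among the mutants 195, 179 and 216. Control replicate 1 was the highest of all and mutant replicates 1 and 2 were below every control, but mutant replicate 3 was above control replicates 2 and 3. The estimate on the log2 scale was -0.15 ± 0.10 (SE; interval -0.41 to 0.11, adjusted p = 0.888, limma), and it was -0.06 without control replicate 1 and -0.09 without mutant replicate 2.

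Bach2 encodes a transcriptional repressor of the basic leucine zipper class that pairs with small Maf proteins. It lies at chr4:32238804-32586108 on the plus strand (ENSMUSG00000040270). The controls had 26.8, 21.2 and 23.7 FPKM in replicates 1 to 3, and the mutants 21.2, 18.7 and 22.4. Mutant replicate 2 was below every control, and the groups overlapped through the low value of control replicate 2. Bach2 had a log2 fold change of -0.19 ± 0.11 (SE; interval -0.46 to 0.08, adjusted p = 0.888, limma). It was -0.11 without control replicate 1 and -0.12 without mutant replicate 2. On the deposited scaled counts, which are not divided by transcript length, the Bach2 groups did not overlap: 3612, 3100 and 3392 in the controls and 3066, 2799 and 3029 in the mutants. Such separation was found in 12% of the 16125 genes tested on that scale, and the adjusted p for Bach2 was 0.658 (limma; 0.658 to 0.999 over all alternatives).

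Asic4 encodes a member of the acid-sensing ion channel family that does not by itself form a proton-gated channel. It had the largest estimate of the 7 genes and was the only 1 whose groups did not overlap in FPKM, as for 11.4% of all genes, 5.33% with the mutants above and 6.05% with the mutants below. The gene lies at chr1:75450436-75474343 on the plus strand (ENSMUSG00000033007). The controls had 1.72, 1.92 and 1.40 FPKM in replicates 1 to 3, and the mutants 2.44, 2.85 and 1.93. The highest control and the lowest mutant were nearly equal, so the separation was narrow. As with Bach2, the Asic4 groups did not overlap on the scaled counts, a separation found in 12% of genes there. The controls had 68.5 to 93.9 and the mutants 96.8 to 139. The FPKM means were 1.68 ± 0.266 and 2.41 ± 0.465 (SD, n = 3 each). This gave a log2 fold change of 0.41 ± 0.17 (SE; interval -0.0099 to 0.83), with an unadjusted p of 0.0540 and an adjusted p of 0.858 (limma; 0.658 to 0.999 over all alternatives). An exact permutation test of its FPKM (two-sided) gave p = 0.1, its lower limit here. At the unadjusted level Asic4 was the 1 of the 7 to pass with robust limma, against 5.45% of genes, and with the replicate block, against 5.06%. After adjustment 0 of the 7 passed in either fit, against 0.084% and 0.03%. Bach2 was the 1 to pass at the unadjusted level without control replicate 2 (-0.27), against 7.38% of genes, with 0 of the 7 and 0.0721% of genes after adjustment. Asic4 was also the least deeply covered, with 60 to 143 fragments per library, whereas Lypd1 had 5572 to 7230.

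Rasgrp1 (ENSMUSG00000027347, chr2:117279993-117343001 on the minus strand) had nearly equal group means, 25.2 ± 1.25 and 25.4 ± 2.42 FPKM (SD, n = 3 each). Its values were 24.1, 25.0 and 26.6 in control replicates 1 to 3 and 25.8, 27.5 and 22.7 in mutant replicates 1 to 3. The mutant range enclosed that of the controls. On the log2 scale the difference was 0.0032 ± 0.08 (SE), with a 95% interval of -0.20 to 0.21 (limma), the narrowest of the 7.

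Calb1 encodes calbindin, a calcium-buffering protein. It lies at chr4:15881264-15908064 on the plus strand (ENSMUSG00000028222). The level of Calb1 was 29.3, 23.0 and 30.9 in control replicates 1 to 3 and 37.6, 38.3 and 27.1 FPKM in mutant replicates 1 to 3. Mutant replicates 1 and 2 were above all controls, and mutant replicate 3 lay inside the control range. The means were 27.7 ± 4.18 and 34.4 ± 6.27 (SD, n = 3 each), with a log2 fold change of 0.30 ± 0.17 (SE; interval -0.13 to 0.73, adjusted p = 0.888, limma).

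Rasgrp2 (ENSMUSG00000032946, chr19:6399340-6415216 on the plus strand) showed the same split among the mutants. Control replicates 1 to 3 had 72.6, 80.7 and 80.6 FPKM, a coefficient of variation of 5.92%, and mutant replicates 1 to 3 had 98.2, 98.5 and 65.0, a coefficient of variation of 22.1%. Mutant replicates 1 and 2 were above every control and mutant replicate 3 was below every control. Rasgrp2 had a log2 fold change of 0.14 ± 0.17 (SE; interval -0.29 to 0.57, adjusted p = 0.932, limma). The ratio of Rasgrp2 to Rasgrp1, in FPKM, was 3.01, 3.22 and 3.03 in control replicates 1 to 3 and 3.80, 3.58 and 2.86 in mutant replicates 1 to 3, with mutant replicates 1 and 2 highest and mutant replicate 3 lowest. On scaled counts the ratio was 0.861, 0.890 and 0.840 and then 0.946, 1.02 and 0.855, so mutant replicates 1 and 2 were again highest but control replicate 3 was lowest.

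**Figure D2:**
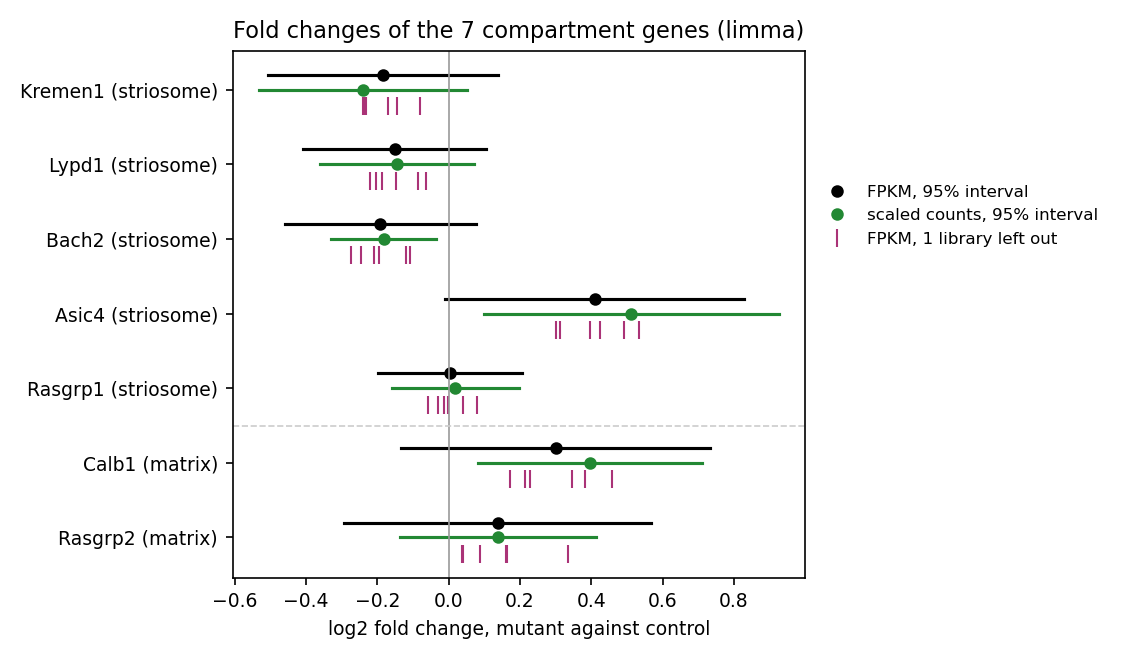
Log2 fold change of each gene, mutant against control, from limma: black points and lines are the estimate and 95% interval on FPKM, green the same on scaled counts, and purple ticks the FPKM estimates with 1 library left out. The FPKM intervals of all 7 genes include 0, and the purple ticks of Rasgrp1 lie on both sides of it.

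The size of the estimates for the matrix genes turned on single libraries of both groups, most of all on mutant replicate 3. Without it, the log2 fold change was 0.34 for Rasgrp2 (interval 0.17 to 0.50, adjusted p = 0.529, limma; 0.529 to 0.999 over all alternatives), 0.46 for Calb1 (interval 0.09 to 0.82, adjusted p = 0.784; 0.654 to 0.999) and 0.53 for Asic4 (interval 0.11 to 0.96, adjusted p = 0.784; 0.658 to 0.999). These 3 of the 7 had an unadjusted p under 0.05, a level passed by 5.97% of genes in that fit, and 0 of the 7 passed after adjustment, against 0.139%. Without mutant replicate 1 or 2, that of Rasgrp2 was 0.04, without control replicate 1 it was 0.09, and without control replicate 2 that of Calb1 was 0.17. Mutant replicate 3, the library with the lowest Rasgrp2, was also the 1 with the highest cortical markers. The 10 cortical markers included Neurod6 at 18.2 FPKM and Tbr1 at 17.7 in that library, and mutant replicate 1, with the second highest sum of 38.5, had high Rasgrp2. The part of cortical tissue in the values of Rasgrp2 and Calb1 was not tested. Calb1 is also expressed by some interneurons. The 8 interneuron markers, all with a mean FPKM above 0.5, summed to 318, 432 and 382 FPKM in control replicates 1 to 3 and 494, 495 and 409 in mutant replicates 1 to 3, so they too were highest in mutant replicates 1 and 2; their part in the values of Calb1 was not tested. Rasgrp2 is also a platelet gene, and of 7 platelet markers Ppbp was at 0 throughout and 5 had a mean FPKM under 0.5, with sums of 3.25 to 3.69 in the controls and 2.75 to 4.09 in the mutants.

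Averaged over genes, the deviation from the control mean on the log2(FPKM + 0.5) scale was 0.39, 0.41 and -0.14 for the 2 matrix genes in mutant replicates 1 to 3, and -0.05, 0.0089 and -0.03 for the 5 striosome genes. The controls spanned -0.10 to 0.11 for the matrix genes and -0.07 to 0.07 for the striosome genes. The striosome mean covered members of opposite sign: in mutant replicate 2, Asic4 was 0.63 above its control mean while Bach2 and Lypd1 were 0.34 and 0.28 below theirs. Red blood cell markers were highest in that same library, and their part in these values was not tested.

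**Figure D3:**
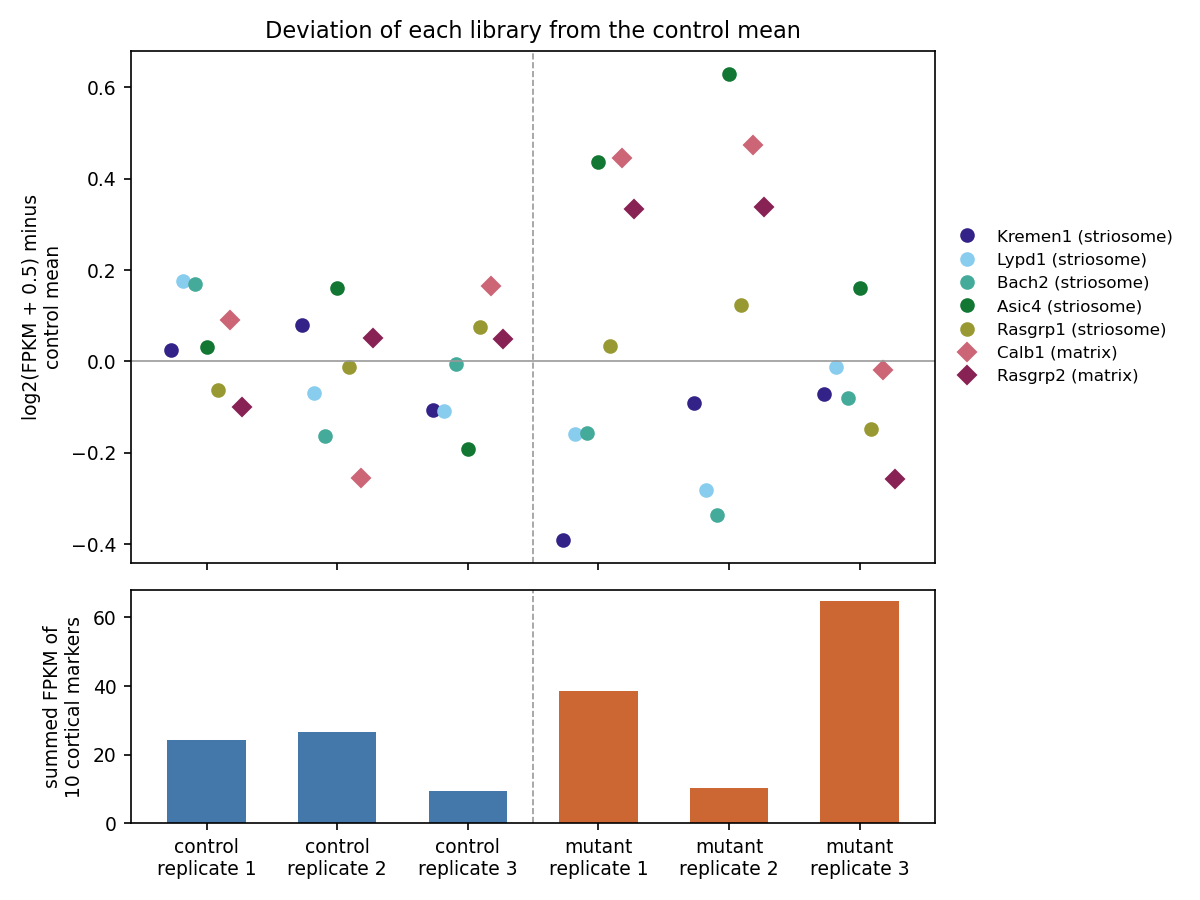
Upper panel, log2(FPKM + 0.5) of each gene in each library minus its mean over the 3 controls, with circles for striosome and diamonds for matrix genes; lower panel, summed FPKM of 10 cortical markers in the same libraries. In mutant replicates 1 and 2 both diamonds are above 0, and in mutant replicate 3, where the bar is tallest at 64.7, both are below on this FPKM scale.

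On the scaled counts, 0 of the 7 genes passed the threshold, against 0.143% of genes, and 3 of the 7 had an unadjusted p under 0.05, against 6.42%. These were Calb1 (log2 fold change 0.40, adjusted p = 0.654, limma; 0.654 to 0.999 over all alternatives), Asic4 (0.51, adjusted p = 0.658) and Bach2 (-0.18, adjusted p = 0.658). The scales differed most for Calb1 and Rasgrp2. Control replicate 1 had 22.5 FPKM of Calb1 per 1000 scaled counts, against 18.4 to 20.1 in the other libraries. Mutant replicate 1 had 45.2 FPKM of Rasgrp2 per 1000 scaled counts, against 37.5 to 41.0. For Rasgrp1 this ratio ran only from 11.1 to 11.4. The scaled counts of Calb1 were 1303, 1200 and 1602 in the controls and 1873, 2068 and 1476 in the mutants, still with mutant replicate 3 inside the control range. On this scale Calb1 in mutant replicate 3 was 0.12 above the control mean (log2), whereas Rasgrp2 there was 0.15 below it.

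Overlapping transcripts were low beside these genes, with Asic4 as the exception. Bach2os, annotated on the opposite strand of Bach2, had scaled counts of 41.7 to 78.0, and Gpr39, opposite Lypd1, had 0.970 to 6.32. Gm37264, opposite Asic4, had 16.1 to 27.4, which is not negligible beside the 68.5 to 139 of Asic4. The use of strand in counting is not given in the sources used here, so fragments of Asic4 and of Gm37264 cannot be told apart where they overlap. Gm14965, opposite Rasgrp2, had 2.91 to 11.6.

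The other genes known to mark the compartments were measured alongside. All 10 further striosome genes passed the filter, and none passed the threshold (limma), with a median log2 fold change of 0.05. At an unadjusted p under 0.05, a level passed by 2.65% of all genes upward and 2.99% downward, 2 were higher and 2 lower. Nnat, a proteolipid gene of developing neurons, had FPKM values of 1446, 1321 and 1328 in the controls and 1845, 1631 and 1604 in the mutants (adjusted p = 0.763, limma). Pdyn, the precursor of dynorphin and also a direct pathway gene, had 17.0 ± 2.99 and 24.2 ± 3.96 (SD, n = 3 each; adjusted p = 0.854, limma). Nr4a1, an activity-regulated nuclear receptor gene, had 13.6 ± 3.35 and 9.33 ± 0.812 (adjusted p = 0.858, limma), and the transcription factor gene Foxp2 had 51.2 ± 0.815 and 46.9 ± 1.49 (adjusted p = 0.795, limma). Oprm1, which encodes the mu opioid receptor that defines striosomes, had 14.8, 10.4 and 14.5 in the controls and 14.5, 9.28 and 13.6 in the mutants, with overlapping groups and a log2 fold change of -0.10 (interval -0.62 to 0.43).

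Tac1, Ppp1r1b and the remaining striosome genes did not pass at the unadjusted level either. Tac1 and Ppp1r1b are also among the striatal projection neuron markers summed above, and Tac1, like Pdyn, is a direct pathway gene. Tac1, which encodes substance P, had 256 ± 12.6 and 254 ± 34.2 FPKM, and Ppp1r1b, which encodes DARPP-32, had 200 ± 13.8 and 187 ± 19.6 (SD, n = 3 each).

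None of the 4 further matrix genes passed the threshold (limma), and their median log2 fold change was 0.015. Cdh8, a cadherin gene, was the 1 gene of these 4 with an unadjusted p under 0.05, against 5.65% of all genes, 2.99% in its direction. Cdh8 had 149, 177 and 170 FPKM in the controls and 120, 116 and 130 in the mutants, with every mutant below every control, as for 6.05% of all genes. The log2 fold change of Cdh8 was -0.43 ± 0.08 (SE; adjusted p = 0.564, limma), opposite in sign to those of Calb1 and Rasgrp2. Epha4, a guidance receptor gene of the matrix, had 101 ± 13.5 and 94.6 ± 6.80 FPKM, and Id4, an inhibitor of helix-loop-helix factors, had 40.7 ± 7.46 and 44.2 ± 8.47 (SD, n = 3 each). Both signs thus occurred among striosome and among matrix markers.

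**Figure D4:**
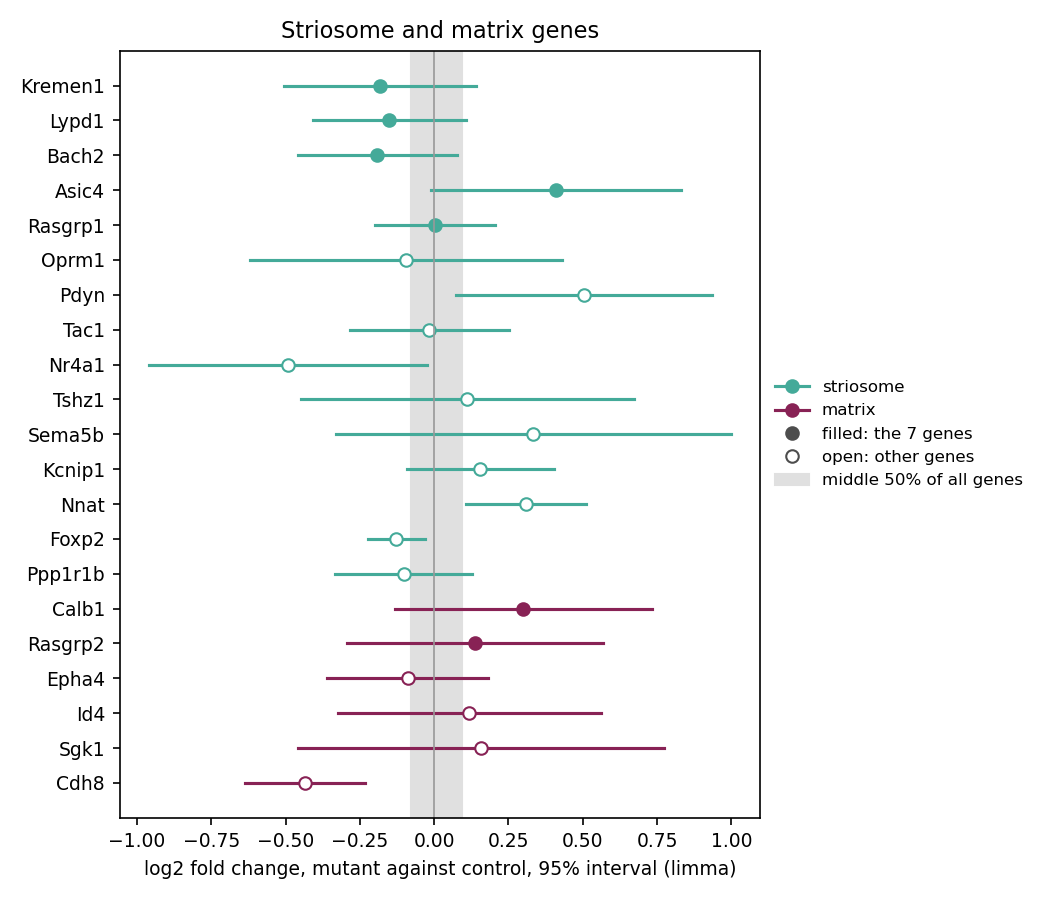
Log2 fold change with 95% interval (limma) of the 7 genes, filled, and of 14 other compartment genes, open, with striosome genes in green, matrix genes in purple and the middle 50% of all genes shaded (-0.08 to 0.09). Points of both signs appear in each compartment, and Cdh8 and Nr4a1 lie furthest to the left.

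Relatives of the 7 genes put their levels in context. Of the 4 Rasgrp genes, Rasgrp2 and Rasgrp1 were the abundant pair, while Rasgrp3 and Rasgrp4 had median FPKM of 1.35 and 0.562. Asic4 was well below Asic1 (51.7) and below Asic2 (3.83). Kremen1 exceeded Kremen2 (0.640), Bach2 exceeded Bach1 (14.3), and Calb1 exceeded Calb2 (1.44), whereas Pvalb was listed at 0 in all libraries. In the Ly6 family, Ly6h (252) had a range that overlapped that of Lypd1, and Lypd6, Lypd6b and Lynx1 had medians of 1.37 to 2.02. Of 13 relatives, 11 passed the filter, and none passed the threshold or had an unadjusted p under 0.05 (limma). The shares of all genes were 0.06% and 5.65%, so a count of 0 of 11 does not set the relatives apart. Their median log2 fold change was 0.05.

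**Figure D5:**
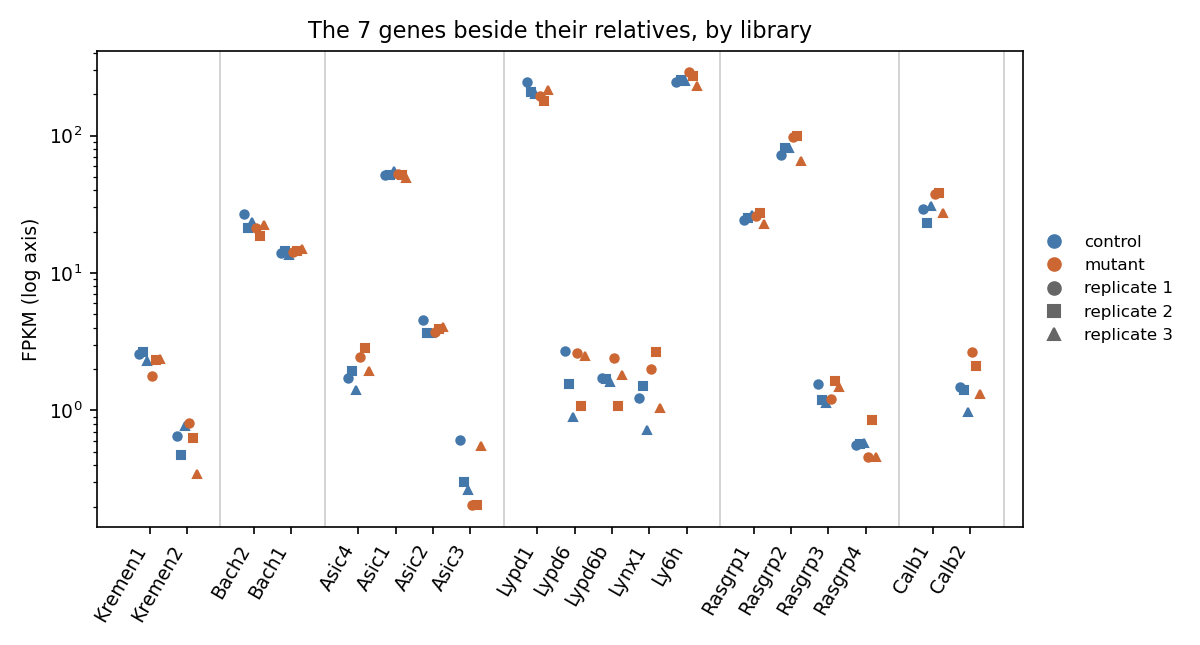
FPKM, on a log axis, of the 7 genes and their relatives in each library, controls in blue and mutants in orange, grouped by family, with marker shapes for the replicate number. Pvalb is listed at 0 and is not drawn. Lypd1, Ly6h and Rasgrp2 are the most abundant, and Kremen2, Asic3 and Rasgrp4 have medians under 1 FPKM.

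Genes whose products act with those of the 7 were counted in the same way. Of 18 such genes, 16 passed the filter and none passed the threshold, against 0.06% of all genes (limma). In FPKM, the count at an unadjusted p under 0.05 was 1 of 16, a share near the 5.65% of all genes, and the median log2 fold change was -0.02. Groups did not overlap for 3 of the 16, 1 with the mutants above and 2 with the mutants below, against 11.4% of all genes. The gene at the unadjusted level in FPKM was Chrna7, a nicotinic receptor subunit (adjusted p = 0.786, limma). It had 5.14, 5.53 and 5.10 FPKM in the controls and 4.09 to 4.58 in the mutants, which did not overlap. On the scaled counts 4 of 17 were at the unadjusted level (limma), against 6.42% of genes: Chrna7, Chrna4, Dkk3 and Mafk. There too 0 passed the threshold, against 0.143% of genes. The nicotinic subunit gene Chrnb2 had 20.4 ± 0.116 and 19.6 ± 0.377 FPKM (SD, n = 3 each), with the mutants below the controls and no overlap, and Chrna4 had 1.27 ± 0.139 and 1.66 ± 0.225. Lrp6, the Wnt co-receptor that Kremen1 acts on, had 16.9 to 17.3 FPKM in the controls and 16.4 to 17.3 in the mutants. On the scaled counts its groups did not overlap, as for 12% of genes, with 1902 to 2024 in the controls and 1740 to 1873 in the mutants (adjusted p = 0.776, limma). Among targets of the Rasgrp proteins, Hras had 59.6 ± 0.958 and 61.6 ± 6.65 FPKM, and Rap1b 57.0 ± 1.46 and 56.3 ± 0.710. Of the small Maf genes, Mafk had 5.11 ± 0.394 and 5.85 ± 0.207, with the mutants above and no overlap, and Mafg had 35.3 ± 2.70 and 32.9 ± 1.33.

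The 3 genes that varied most between libraries were Asic4, Calb1 and Rasgrp2, with SDs of 0.29, 0.28 and 0.24 on the log2(FPKM + 0.5) scale over the 6 libraries. For each, the nearest genes were taken from 9061 protein-coding genes with established names, by the root mean square difference between centred log2 profiles. Ralyl (0.0745) and Rras2 (0.0756) were nearest to Asic4, Htr2c (0.0757) and Ecel1 (0.0881) to Calb1, and Kcnab2 (0.0652) to Rasgrp2. Kcnab2, for example, had FPKM values of 15.8, 18.0 and 16.2 in control replicates 1 to 3 and 19.4, 20.2 and 13.7 in mutant replicates 1 to 3, again lowest in mutant replicate 3. Htr2c, a serotonin receptor gene, had 6.62, 5.61 and 7.80 and then 9.52, 8.48 and 6.69. With 6 libraries and this many genes, such likeness is a description of these libraries.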

How the data were processed

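The 6 libraries are those of the groups described above, and columns were matched to them by the codes in the labels. The authors deposited 1 table with an FPKM and a count column per library, per the file headers. Per the submitters' processing notes, the tools were TopHat and Cufflinks 2.1.1 and the build GRCm38.p4. The sources used here do not give the annotation, the treatment of multi-mapped reads or the use of strand. The deposited count columns hold a signal that is not whole, scaled by the authors in a way that no source used here states. They are called scaled counts here, because 98.7 to 98.9% of low values lay within 0.1 of a whole multiple of 1 step per library (0.970 to 1.15), and no count test was run. Symbols came from GENCODE M21 (GRCm38; 46483 identifiers matched).

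limma 3.58.1 in R 4.3.3 was fitted with a variance trend to log2(FPKM + 0.5) of all 6 libraries, without covariates, after a filter (mean FPKM at or above 0.5). P-values are two-sided and Benjamini-Hochberg adjusted over all genes tested. Fold changes on this scale understate those of low genes. All 7 genes are described. From the lists of other compartment genes, relatives and partners, genes were named if past the threshold or at an unadjusted p under 0.05, with up to 3 others of highest FPKM; Oprm1, further relatives and partners and the overlapping transcripts were named after their values were seen. Up to 2 nearest genes by profile were named for the 3 most variable members, and some genes that these rules name are not reported here. The members and lists were chosen with earlier results of these data known. Alternatives were pseudocounts of 0.1 and 1, no filter or a mean FPKM of at least 1, median-ratio scaling, quantile normalization, scaled counts (log2(value + 1), mean of at least 10), robust limma, the replicate number as a block, and each library left out. The fit was also run on simulated data with a common spread for all genes, as a check of the code. That run does not measure how the fit performs on these genes. Promoter windows were read from a RefSeq table.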

Additional observations from a re-analysis of the deposited data

How the results depend on the processing

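The count of the 7 genes past the threshold was 0 in all 15 alternatives run, and their adjusted p ran from 0.529 to 1 (limma). Kremen1, Lypd1, Bach2, Asic4, Calb1 and Rasgrp2 kept their sign in all 15. Rasgrp1, at 0.0032 as reported, lay between -0.057 and 0.078 when libraries were left out singly. Its sign turned in 4 of these 6 fits: it was -0.029 and -0.0025 without control replicates 1 and 2, and -0.012 and -0.057 without mutant replicates 1 and 2. Without mutant replicate 3 the estimate for Rasgrp2 was 0.34, against 0.14 with all libraries and 0.04 without mutant replicate 1 or 2. Over all genes, 10 passed as reported, 23 on scaled counts, 5 with the replicate block, and 12 to 23 with 1 library left out (19 and 20 without control replicates 1 and 3, 18 without mutant replicate 1 or 2, 23 without mutant replicate 3). The cause was not tested. The labels do not say whether same-numbered libraries form pairs. Same-numbered libraries had correlations of their deviations of 0.0025, 0.0372 and 0.0433, against -0.0683 to 0.0328 for the others. Not every library correlated best with its own number. Values this small can neither show nor exclude a pairing. With the replicate block the unadjusted p was under 0.05 for Asic4 alone, against 5.06% of genes. The planned edgeR and DESeq2 fits were not run, because the count columns do not hold whole reads. Depth limits Asic4 and Kremen1 most, at 60 to 143 and 171 to 245 fragments per library.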
